A study of Mus musculus with 12 samples.

Results

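Paclitaxel added to the small-GTPase inhibitor MBQ-167 was examined in mouse mammary tumours by setting 3 libraries from mice given both drugs against 3 libraries from mice given MBQ-167 alone, 6 of the 12 libraries of the series, across all 18252 expressed genes. The tumours grew in BALB/c mice from 300000 cells of 4T1, a mouse mammary carcinoma line that metastasises spontaneously and here carried firefly luciferase, placed in mammary fat pad number 4 on 2 occasions. Combination mice received MBQ-167 at 100 mg/kg 5 times a week and paclitaxel at 5 mg/kg 1 time a week, and MBQ-167 mice received the first drug only at the same dose and schedule. Treatment ran from day 14 after injection for 2 weeks, and tumours were taken on day 28. The other libraries, 3 from mice given paclitaxel alone at the same dose and 3 from vehicle mice, are used where the effect of paclitaxel without MBQ-167 is set beside its effect in the MBQ-167 background. The labels call the libraries of a group biological replicates without saying that each is a separate mouse, so the p-values cover the spread of these libraries, which may be technical. Which library came from which injection occasion is not given, so the occasions and the groups cannot be told apart.

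Paclitaxel binds tubulin within microtubules and stabilises them, so that dividing cells are held in mitosis by the spindle checkpoint. MBQ-167 inhibits Rac and Cdc42, GTPases that drive actin polymerisation, membrane protrusion and migration through kinases such as PAK1. Cholesterol and fatty acid synthesis, to which many of the values below belong, are controlled by the SREBP transcription factors: when membrane sterol is low, SREBP is released from the endoplasmic reticulum, cut in the Golgi apparatus, and switches on the synthesis enzymes together with its own brake, INSIG1.

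Total counts were 11540557, 15239296 and 16120018 in the combination libraries and 13947914, 14752255 and 15746272 in the MBQ-167 libraries. The tumour cell keratins were abundant in all 6, with Krt8 at 277 to 370 CPM (counts scaled for library size) and Krt18 at 383 to 535 CPM. The lincRNA-annotated features Gm26917 and Gm42418 on chromosome 17 and the mitochondrial rRNA mt-Rnr2 together took 30.3% ± 7.55 of counts in combination libraries and 34.5% ± 3.41 in MBQ-167 libraries (SD, n = 3 each; two-sided exact permutation p = 0.5, where 0.1 is the smallest value 3 against 3 allows). The libraries differed in how levels follow transcript GC content. The correlation of a gene's level, relative to its mean over the libraries, with GC content averaged -0.148 ± 0.099 in combination libraries and 0.102 ± 0.081 in MBQ-167 libraries (SD, n = 3 each; two-sided exact permutation p = 0.1, the smallest possible), and the groups did not overlap. Values with each library's GC trend removed are given beside the gene lists and genes they move. Among the vehicle libraries, replicate 3 stood apart in neutrophil markers, which summed to 2023 CPM there against 681 and 519 CPM in the other two. It also stood apart in skeletal muscle markers (63.0 CPM, against 12.8 and 8.22), macrophage markers (1705.5 CPM, against 4238 and 6255) and collagens (15657 CPM, against 8645 and 9120.5). Erythroid markers were alike in all 3, at 258 to 265 CPM. Values that use vehicle are also given without vehicle replicate 3, for the gene lists described and some of the genes, where a call changes or the value moves by more than 1.5 times.

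No gene passed the test when paclitaxel was added to MBQ-167. Of 18252 genes, 0 (0%) reached an adjusted p under 0.05 in the quasi-likelihood test of edgeR with Benjamini-Hochberg adjustment, and the smallest adjusted p was 0.879. At an unadjusted p under 0.05 there were 539 genes higher in the combination (2.95%) and 401 lower (2.2%), 940 in all (5.15%). Every gene list described below therefore has 0 members that passed, and it is described by its median and by the members whose groups do not overlap. DESeq2 called 1 gene, and edgeR without the filter on low counts called 4. The same model called 1033 genes (5.66%) for paclitaxel against vehicle, 578 higher (3.17%) and 455 lower (2.49%).

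Interval widths give the precision of this comparison. Over the 15923 genes that averaged 1 CPM or more, the 95% confidence interval of the log2 fold change reached 0.44 to either side at the median gene, and it was narrower than 1 to either side for 90.5% of them. Fold changes beyond 1 on the log2 scale were estimated for 0.999% of genes in combination against MBQ-167 and for 5.51% in paclitaxel against vehicle, and the median absolute log2 fold changes were 0.15 and 0.26. The median distance between libraries, as the median absolute log2 difference over these genes, was 0.224 for the 6 pairs within a group and 0.233 for the 9 pairs across groups.

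**Figure D1:**
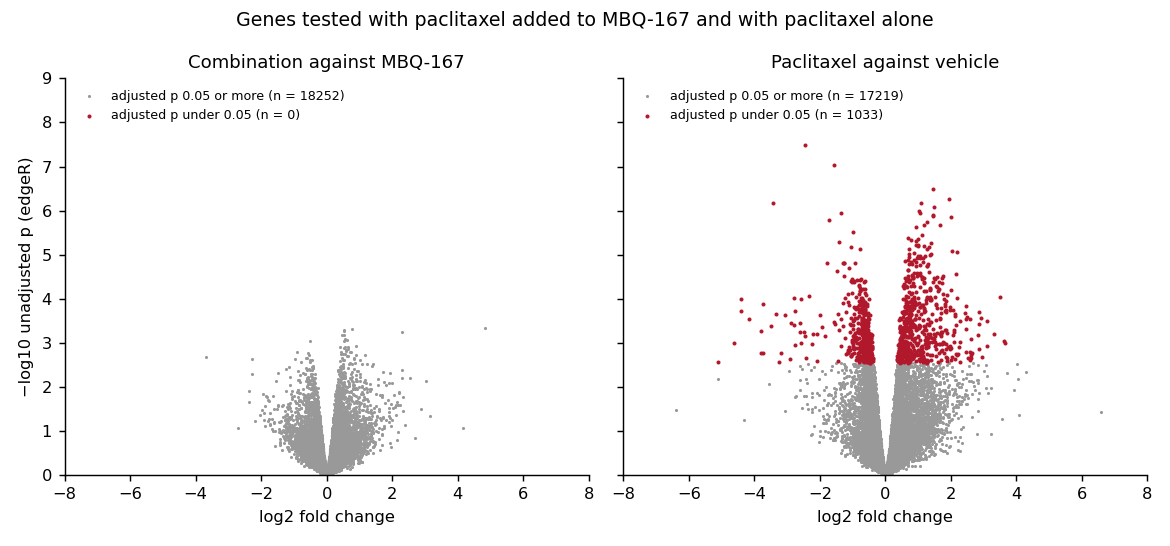
Each point is one of 18252 genes, with the log2 fold change on the horizontal axis and −log10 of the unadjusted edgeR p-value on the vertical axis, for combination against MBQ-167 (left) and paclitaxel against vehicle (right). Red points have an adjusted p under 0.05: 0 on the left and 1033 on the right.

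The genes of cholesterol synthesis lay lower in the combination tumours than in MBQ-167 tumours, though none passed the test. Of 23 list members, all tested, 21 had a negative log2 fold change and 2 a positive one, with a median of -0.30, against a median of 0.01 over all genes. In 8 of them (34.8%) every combination library was below every MBQ-167 library, against 5.92% of all genes, and 0 lay wholly above, against 6.59% of all genes. Unadjusted p was under 0.05 for 7, all lower, against 2.2% of all genes. With the GC trend removed the median was -0.34, and 7 members (30.4%) lay wholly lower against 5.9% of all genes with a GC value. The median stayed between -0.37 and -0.25 when each of the 6 libraries was left out in turn.

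3 promoters of this list are shown for sites through which the sterol response is known to run. The CCAAT box, bound by NF-Y, which works beside SREBP, is in all 3, and the sterol regulatory element TCACNCCAC is in Hmgcs1 only. Insig1 has the smallest p of the list, and Msmo1 and Hmgcs1 were chosen after their values and sequences were seen. Each runs from 250 bases before to 50 bases after the transcription start in the RefSeq annotation of GRCm38.p6, with matches to the motifs on either strand in capitals (CCAAT or its reverse complement ATTGG, and TCACNCCAC). The windows are chr5:28071162-28071461 (plus strand) for Insig1, chr8:64733529-64733828 (minus strand) for Msmo1 and chr13:119690101-119690400 (plus strand) for Hmgcs1.
Insig1: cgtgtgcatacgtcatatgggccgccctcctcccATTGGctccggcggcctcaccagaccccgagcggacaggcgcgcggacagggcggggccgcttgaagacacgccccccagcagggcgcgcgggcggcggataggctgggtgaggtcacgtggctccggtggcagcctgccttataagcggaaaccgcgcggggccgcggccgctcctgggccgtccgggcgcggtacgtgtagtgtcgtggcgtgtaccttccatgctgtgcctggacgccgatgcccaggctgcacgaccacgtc
Msmo1: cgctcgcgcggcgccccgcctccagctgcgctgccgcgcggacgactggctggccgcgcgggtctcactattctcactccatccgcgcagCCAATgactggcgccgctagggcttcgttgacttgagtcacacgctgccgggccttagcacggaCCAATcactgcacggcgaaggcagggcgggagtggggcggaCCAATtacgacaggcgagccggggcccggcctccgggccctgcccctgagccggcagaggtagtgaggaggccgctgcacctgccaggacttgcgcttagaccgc
Hmgcs1: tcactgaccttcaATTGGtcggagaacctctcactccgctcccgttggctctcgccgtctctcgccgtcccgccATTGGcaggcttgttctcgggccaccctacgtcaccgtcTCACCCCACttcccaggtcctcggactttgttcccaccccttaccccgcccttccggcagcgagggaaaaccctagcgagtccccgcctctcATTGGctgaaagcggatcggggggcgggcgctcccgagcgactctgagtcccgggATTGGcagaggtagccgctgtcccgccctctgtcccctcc
Insig1 has 1 CCAAT match, Msmo1 has 3, and Hmgcs1 has 4 together with 1 TCACNCCAC match. The table held a window for 16 of the 23 list members, and CCAAT was found in 16 of the 16 (100%), against 42.2% of the 11414 tested genes with a window. TCACNCCAC was found in 1 of the 16 (6.25%), Hmgcs1, against 1.42% of those tested genes. The motifs do not overlap each other in letters, and a match describes the sequence only.

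Insig1 (ENSMUSG00000045294, chromosome 5, 28071363 to 28078662, GRCm38), which encodes the protein that holds SREBP in the endoplasmic reticulum and is itself an SREBP target, had 45.8, 48.9 and 38.1 CPM in combination libraries, against 65.3, 62.5 and 59.2 CPM in MBQ-167 libraries. The groups did not overlap, and the log2 fold change was -0.50 (SE 0.12, 95% interval -0.75 to -0.24; edgeR adjusted p = 0.879, unadjusted p = 0.000932).

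The enzymes and the regulator that follow were chosen after their values were seen. Msmo1, which removes methyl groups from the sterol ring, had 28.4, 35.3 and 30.6 CPM in combination libraries, against 36.2, 40.6 and 50.5 CPM in MBQ-167 libraries. Dhcr7, the last reductase before cholesterol, had 16.3, 16.2 and 15.1 CPM in combination libraries, against 18.3, 20.002 and 25.3 CPM in MBQ-167 libraries. Neither pair of groups overlapped. Hmgcs1, which makes HMG-CoA, had 53.6, 68.1 and 59.7 CPM in combination libraries and 67.0, 76.2 and 76.9 CPM in MBQ-167 libraries, and its groups overlapped. Srebf2, which encodes the sterol-regulated SREBP itself, had 92.8, 108 and 97.3 CPM in combination libraries, against 111, 121 and 118 CPM in MBQ-167 libraries. The 2 members on the other side of 0 were Ebp, a sterol isomerase, at 0.35 and Fdps, a farnesyl diphosphate synthase, at 0.19.

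Fatty acid synthesis genes had a median log2 fold change of -0.15 over 12 members, of which 10 were negative, and 6 (50%) lay wholly below MBQ-167, against 5.92% of all genes. Unadjusted p was under 0.05 for 4, all lower, against 2.2% of all genes. With the GC trend removed, 5 lay wholly lower (41.7%, against 5.9% of all genes). The members given here were chosen after their values were seen. Fasn, the fatty acid synthase, had 451, 423 and 432 CPM in combination libraries, against 487, 539 and 684 CPM in MBQ-167 libraries. Scd2, a desaturase that makes monounsaturated fatty acids, had 346, 372 and 320 CPM in combination libraries, against 451, 457 and 574 CPM in MBQ-167 libraries, with a log2 fold change of -0.52 (SE 0.14). Fads2, a desaturase of polyunsaturated fatty acids, had 11.3, 13.6 and 17.1 CPM in combination libraries, against 20.3, 22.7 and 24.1 CPM in MBQ-167 libraries, a log2 fold change of -0.67 (SE 0.20). In all 3 genes the groups did not overlap. Scd1, an isoform abundant in adipocytes, had 47.9, 104 and 165 CPM in combination libraries and 70.6, 63.8 and 154 CPM in MBQ-167 libraries, with wide overlap.

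**Figure D2:**
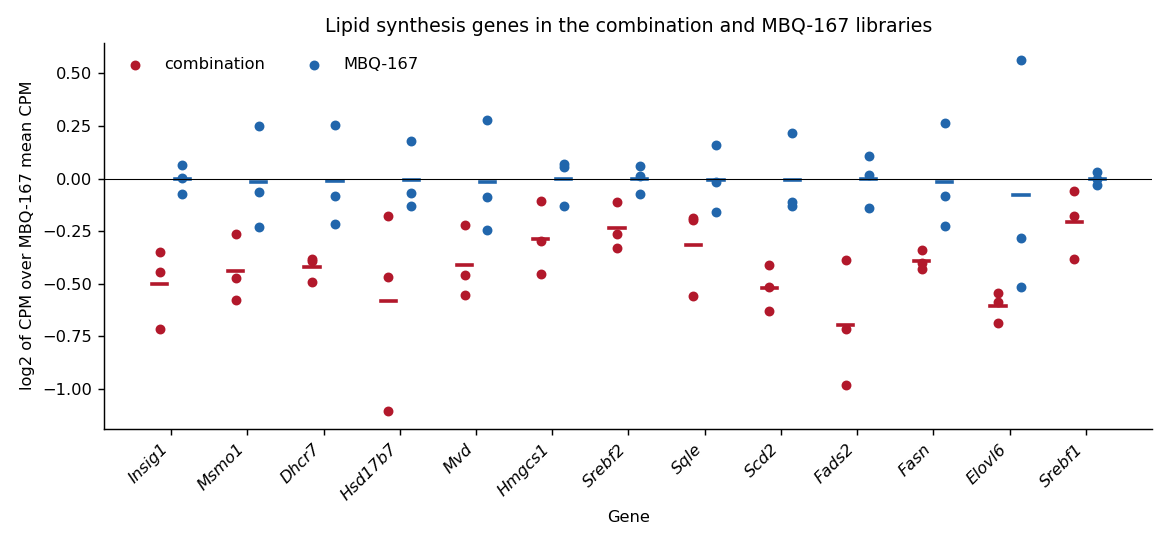
Each point is a library, as log2 of its CPM over the mean CPM of the MBQ-167 libraries, for 13 genes of cholesterol and fatty acid synthesis chosen after their values were seen; bars are group means, red for combination and blue for MBQ-167. Combination libraries lie below the MBQ-167 mean for every gene shown, and no gene passed the test.

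Both lists also had negative medians with paclitaxel alone. The median log2 fold change of the cholesterol list was -0.36 in paclitaxel against vehicle. Of its 23 members 2 passed, both lower, against 2.49% of all genes. The median of the fatty acid list was -0.16, and none of 12 passed. Without vehicle replicate 3 these medians were -0.22 and -0.08, and no member of either list passed. With the GC trend removed they were -0.35 and -0.12, and again no member passed. The comparisons share no library, though their p-values used a spread estimated over all 12 libraries. The interaction, which is the combination minus MBQ-167 difference less the paclitaxel minus vehicle difference, had a median of 0.03 for the cholesterol list and -0.16 for the fatty acid list, and no member of either passed it. The cholesterol list's interaction median was -0.12 without vehicle replicate 3. Insig1 had 49.9, 43.6 and 49.4 CPM in paclitaxel libraries, against 59.0, 57.2 and 66.8 CPM in vehicle libraries (edgeR adjusted p = 0.0902). Srebf2 fell with paclitaxel alone, by 0.53 on the log2 scale (SE 0.12, edgeR adjusted p = 0.0239), and its combination against MBQ-167 value was -0.23 (SE 0.12). The paclitaxel call of Srebf2 was lost without vehicle replicate 3 (-0.39, adjusted p = 0.0548), without any 1 of the paclitaxel libraries (adjusted p = 0.062 to 0.0825) and with the GC trend removed (-0.39, adjusted p = 0.133).

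Glycolysis genes lay slightly lower: all 18 had a negative log2 fold change, with a median of -0.15, and 4 (22.2%) lay wholly below MBQ-167, against 5.92% of all genes. The median was -0.09 with the GC trend removed, and 2 (11.1%) lay wholly lower, against 5.9% of all genes. Slc2a1, the main glucose transporter of tumour cells, had 175, 172 and 138 CPM in combination libraries and 174, 213 and 150 CPM in MBQ-167 libraries, with overlap. Ldha, lactate dehydrogenase A, had 313, 431 and 395 CPM in combination libraries and 431, 420 and 344 CPM in MBQ-167 libraries, also with overlap. With paclitaxel alone 9 of the 18 genes fell, against 2.49% of all genes. Slc2a1 fell by 0.93 (SE 0.15, edgeR adjusted p = 0.00488) and Ldha by 0.49 (SE 0.14, adjusted p = 0.0492). The number that fell was 2 to 8 leaving out single libraries (2 without paclitaxel replicate 2, 8 without vehicle replicate 3) and 3 with the GC trend removed. Slc2a1 passed in each of these fits and Ldha in none of them (adjusted p = 0.0561 to 0.17). The interaction passed for none of the 18, and for Slc2a1 it was 0.79 (SE 0.20, adjusted p = 0.226).

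The targets of the drugs and the cell division genes showed small values. Of 33 genes of Rac and Cdc42 signalling, 0 had an unadjusted p under 0.05, against 5.15% of all genes. Their median log2 fold change was -0.10, or -0.016 without MBQ-167 replicate 1. Of the 33, 2 (6.06%) lay wholly above and 3 (9.09%) wholly below MBQ-167, against 6.59% and 5.92% of all genes. With the GC trend removed, 1 (3.03%) lay wholly above and 4 (12.1%) wholly below, against 4.67% and 5.9% of all genes. Rac1 had 248, 273 and 219 CPM in combination libraries and 266, 268 and 259 CPM in MBQ-167 libraries; its log2 fold change was -0.10 (95% interval -0.35 to 0.15). Cdc42 had a value of -0.20 (95% interval -0.47 to 0.06), and Pak1, a kinase activated by both GTPases, one of -0.30 (95% interval -0.61 to 0.01). The median was -0.14 over 14 tubulins and 0.00 over 21 microtubule-binding proteins. In both lists 0 members had an unadjusted p under 0.05, against 5.15% of all genes. Without MBQ-167 replicate 1 the median of the microtubule-binding proteins was -0.083. Tubb5, the most common beta-tubulin of dividing cells, had a log2 fold change of -0.08 (95% interval -0.36 to 0.19), and Stmn1, which destabilises microtubules, one of 0.17 (95% interval -0.47 to 0.81). Tubb3, a beta-tubulin studied in taxane resistance, was below the count filter and was not tested. Of the drug efflux pumps that carry paclitaxel, Abcb1b had 41.7, 57.6 and 54.8 CPM in combination libraries and 48.3, 55.3 and 47.2 CPM in MBQ-167 libraries, and Abcb1a had a log2 fold change of -0.49 with a 95% interval of -1.60 to 0.62.

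Mitosis and spindle checkpoint genes had a median log2 fold change of 0.12 over 30 members, 22 of them positive; 4 (13.3%) lay wholly above and 1 (3.33%) wholly below MBQ-167, against 6.59% and 5.92% of all genes. The median was 0.06 with the GC trend removed, and 2 (6.67%) lay wholly above and 1 (3.33%) wholly below, against 4.67% and 5.9% of all genes. Mki67, a proliferation marker, had 178, 244 and 248 CPM in combination libraries and 185, 198 and 200 CPM in MBQ-167 libraries (log2 fold change 0.20, 95% interval -0.10 to 0.50). Ccnb1, the cyclin of mitotic entry, had 14.4, 14.7 and 16.0 CPM in combination libraries and 9.96, 13.4 and 15.6 CPM in MBQ-167 libraries. Both overlapped between the groups. Top2a, the topoisomerase of chromosome separation, chosen after its values were seen, had 397, 358 and 407 CPM in combination libraries, against 283, 327 and 308 CPM in MBQ-167 libraries, with no overlap and a log2 fold change of 0.34 (SE 0.12, edgeR adjusted p = 0.879).

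Targets of p53, the transcription factor that responds to DNA damage and mitotic failure, had a median of 0.21 over 18 members, and 4 (22.2%) lay wholly above and 1 (5.56%) wholly below MBQ-167, against 6.59% and 5.92% of all genes. Removing the GC trend gave a median of 0.22, and 2 (11.1%) lay wholly above and 2 (11.1%) wholly below, against 4.67% and 5.9% of all genes. The first median was 0.15 without combination replicate 1 and 0.07 without combination replicate 2. Cdkn1a, the p21 cell cycle inhibitor, overlapped between the groups, with a log2 fold change of 0.11 (95% interval -0.18 to 0.41). Of the others, chosen after their values were seen, Ccng1, which encodes cyclin G1, had 60.1, 50.6 and 54.3 CPM in combination libraries, against 45.3, 41.1 and 38.3 CPM in MBQ-167 libraries, and Trp53inp1 had 42.3, 28.9 and 39.2 CPM, against 27.1, 24.05 and 24.05 CPM. The groups did not overlap in either gene. With paclitaxel alone the median of the p53 target list was 0.02, or -0.04 with the GC trend removed. Whether p53 itself was active in the tumour cells was not tested.

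The genes singled out by the smallest p-values were the first 10 in each direction among those whose groups did not overlap, so their separation was set by the choice. Rev3l, the catalytic subunit of the translesion DNA polymerase zeta, had 97.9, 87.6 and 78.9 CPM in combination libraries, against 63.0, 57.7 and 61.0 CPM in MBQ-167 libraries (log2 fold change 0.54, SE 0.12, edgeR adjusted p = 0.879). Brca1, which acts in repair by homologous recombination, had 26.4, 30.1 and 27.4 CPM in combination libraries, against 16.8, 19.4 and 21.4 CPM in MBQ-167 libraries (0.54, SE 0.13). Ddias, a suppressor of apoptosis after DNA damage, had 5.21, 6.13 and 5.95 CPM in combination libraries, against 3.08, 3.18 and 2.98 CPM in MBQ-167 libraries (0.91, SE 0.22). In each the lowest combination library was above the highest MBQ-167 library. With the GC trend removed the log2 fold changes were 0.43 for Rev3l, 0.52 for Brca1 and 0.74 for Ddias.

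Rn7sk, the 7SK RNA that keeps the elongation factor P-TEFb inactive and that RNA polymerase III makes without a poly(A) tail, had 4702, 4902 and 4259 CPM in combination libraries, against 3174, 3088 and 3281 CPM in MBQ-167 libraries, and 4684, 5282 and 4850 CPM in paclitaxel libraries, against 5391, 5211 and 5012 CPM in vehicle libraries. It was the only gene that DESeq2 called (log2 fold change 0.54, DESeq2 adjusted p = 0.000311; edgeR adjusted p = 0.879). Every library of the other 3 groups was above the MBQ-167 libraries. The other genes of the higher set were Rpl36a-ps2, a ribosomal protein pseudogene whose reads may come from its parent gene, Kctd18, Ulk4, Chchd2, Mndal and Fkbp3, with log2 fold changes of 0.47 to 0.79. Kctd18, Ulk4, Mndal and Fkbp3 also rose with paclitaxel alone (edgeR adjusted p = 0.0317, 0.00784, 0.00955 and 0.0411). When the GC trend was removed Ulk4 passed (adjusted p = 0.0181), and Kctd18, Mndal and Fkbp3 did not (log2 fold changes of 0.18, 0.31 and 0.06; adjusted p = 0.423, 0.321 and 0.869). Leaving out single libraries, Ulk4 and Mndal passed each time, Kctd18 in 2 of 6 fits and Fkbp3 in 1 of 6. Ulk4, a pseudokinase gene that overlaps Ctnnb1 on the other strand, had 75.7, 74.5 and 68.7 CPM in combination libraries, against 53.9, 52.9 and 51.1 CPM in MBQ-167 libraries, and 81.0, 75.8 and 73.8 CPM in paclitaxel libraries, against 48.6, 44.5 and 56.7 CPM in vehicle libraries. Mndal, of the interferon-induced HIN-200 family, overlaps Ifi203 on the same strand, and Kctd18 overlaps Sgo2a and Fkbp3 overlaps Prpf39, so counting could have split or mixed their reads.

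The lower set included Insig1, described above, with Carns1, Rgp1, Pear1, Csgalnact1, Rap1gap, Zc3hav1l and Dmtn. Carns1, which joins histidine and beta-alanine to carnosine and overlaps the antisense gene Gm17552, had 3.44, 3.16 and 3.16 CPM in combination libraries, against 5.94, 6.07 and 6.39 CPM in MBQ-167 libraries (log2 fold change -0.92, SE 0.24, edgeR adjusted p = 0.879). Rap1gap, which switches off the GTPase Rap1, had 33.5, 32.0 and 23.6 CPM in combination libraries, against 51.4, 45.6 and 37.0 CPM in MBQ-167 libraries (-0.59, SE 0.16). Neither gene passed with paclitaxel alone, where Carns1 had a log2 fold change of 0.61 (SE 0.24) and Rap1gap one of -0.33 (SE 0.16). The interaction of Carns1 was -1.52 (SE 0.33, edgeR adjusted p = 0.143). Rgp1, Pear1, Csgalnact1, Zc3hav1l and Dmtn had log2 fold changes of -0.79 to -0.46, of which Rgp1 overlaps Gba2 and Pear1 overlaps Lrrc71. With paclitaxel alone Zc3hav1l had a value of 0.43 and the others values of -0.46 to -0.14, and none passed.

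Neutrophil markers were lower in combination tumours in most members. Of 21 tested, 20 had a negative log2 fold change, with a median of -0.78, and 9 (42.9%) lay wholly below MBQ-167, against 5.92% of all genes. Of the 21, 1 had an unadjusted p under 0.05, against 5.15% of all genes. Removing the GC trend gave a median of -0.74, and 8 (38.1%) lay wholly lower, against 5.9% of all genes. The markers summed to 370, 349 and 403 CPM in combination libraries, against 447, 494 and 523 CPM in MBQ-167 libraries, with no overlap. S100a8, a calcium-binding protein that fills neutrophil cytoplasm, had 33.6, 21.8 and 21.4 CPM in combination libraries, against 39.2, 59.4 and 64.5 CPM in MBQ-167 libraries (log2 fold change -1.10, SE 0.47, edgeR adjusted p = 0.936). S100a9, its partner, had 42.1, 33.5 and 33.8 CPM in combination libraries, against 52.2, 75.8 and 70.9 CPM in MBQ-167 libraries. Trem1, a receptor that amplifies neutrophil activation, overlapped between the groups, with a log2 fold change of -0.48 (SE 0.23). In bulk tumour RNA, fewer cells of a type and less RNA per cell cannot be told apart. With paclitaxel alone, 13 of the 21 fell, against 2.49% of all genes, and the median was -2.57. S100a8 fell by 2.57 (SE 0.48, edgeR adjusted p = 0.0107), and the interaction passed for none of the 21. Without vehicle replicate 3, whose neutrophil markers stand apart, 11 fell and the median was -1.48, with S100a8 at -1.53 (adjusted p = 0.00812). Without paclitaxel replicate 2, 1 of the 21 fell and S100a8 did not pass (-2.38, adjusted p = 0.0536), and 8 fell without paclitaxel replicate 3.

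Erythroid markers, which reflect blood in the sample, had a median of -1.08 over 6 tested genes, all negative, and summed to 67.5, 33.3 and 32.6 CPM in combination libraries and 90.4, 44.6 and 108 CPM in MBQ-167 libraries. The median was -1.81 without combination replicate 1. The alpha-globin gene Hba-a2 had 0.558, 0.248 and 0.474 CPM in combination libraries, against 1.504, 1.444 and 2.07 CPM in MBQ-167 libraries, and its near-identical copy Hba-a1 had 3.35, 2.35 and 1.79 CPM, against 4.08, 3.76 and 5.54 CPM. Reads of the 2 copies cannot be assigned with certainty. Slc4a1, the anion exchanger of red cells, was below 1 CPM in all 6 libraries. The part of neutrophil and blood content in the other differences was not tested.

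Adipocyte markers, from fat around the gland, had a positive log2 fold change in all 8 tested genes and a median of 0.63, and none lay wholly above MBQ-167. They summed to 37.7, 67.3 and 99.0 CPM in combination libraries and 39.7, 31.0 and 59.8 CPM in MBQ-167 libraries. The fatty acid carrier Fabp4 had 16.2, 25.5 and 38.5 CPM in combination libraries and 15.3, 13.0 and 21.1 CPM in MBQ-167 libraries, and the adipsin gene Cfd had 7.34, 19.0 and 32.1 CPM in combination libraries and 8.24, 3.54 and 15.1 CPM in MBQ-167 libraries. Lep, the leptin gene, was below 1 CPM in all 6 libraries. The groups overlapped in each, and the list median lay between 0.30 and 1.02 when single libraries were left out.

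The immune programmes described here are the interferon genes and the inflammatory cytokines. The interferon response list had a median of 0.07 over 32 genes. Of these, 2 had an unadjusted p under 0.05, both higher, against 2.95% of all genes. Paclitaxel alone gave a median of 0.90, with 20 of 32 passing, all higher, against 3.17% of all genes. That count was 15 without vehicle replicate 3, 14 with the GC trend removed, 8 without paclitaxel replicate 2 and 12 without paclitaxel replicate 3. Ifit1, an RNA-binding antiviral protein, had 13.6, 8.86 and 10.6 CPM in combination libraries and 10.2, 9.17 and 10.6 CPM in MBQ-167 libraries, with overlap. Interferon gamma effectors had a median of -0.16 over 22 genes in combination against MBQ-167. Of these, 0 had an unadjusted p under 0.05, against 5.15% of all genes. With paclitaxel alone their median was 1.49 and 17 passed, all higher, against 3.17% of all genes. That count was 14 without vehicle replicate 3, 13 with the GC trend removed, 11 without vehicle replicate 1 and 6 without paclitaxel replicate 2. The interferon response list summed to 797, 759 and 792 CPM in MBQ-167 libraries, against 619, 579 and 505 CPM in vehicle libraries. The interferon gamma effectors summed to 1031, 1131 and 816 CPM, against 602, 615 and 452 CPM. The paclitaxel comparisons with and without MBQ-167 therefore start from different levels. The interaction medians were -0.75 and -1.59, and of the genes on these lists only Zbp1, of the interferon response list, passed it. Zbp1 did not pass it in 11 of the 12 fits without 1 library or with the GC trend removed. Inflammatory cytokines had a median of -0.27 over 17 genes, with 4 (23.5%) wholly lower, against 5.92% of all genes, or 3 (17.6%, against 5.9%) with the GC trend removed. Il1b, chosen after its values were seen, had 30.5, 33.9 and 34.7 CPM in combination libraries, against 41.9, 59.0 and 50.2 CPM in MBQ-167 libraries, and the summed neutrophil markers above differ between the same libraries.

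**Figure D3:**
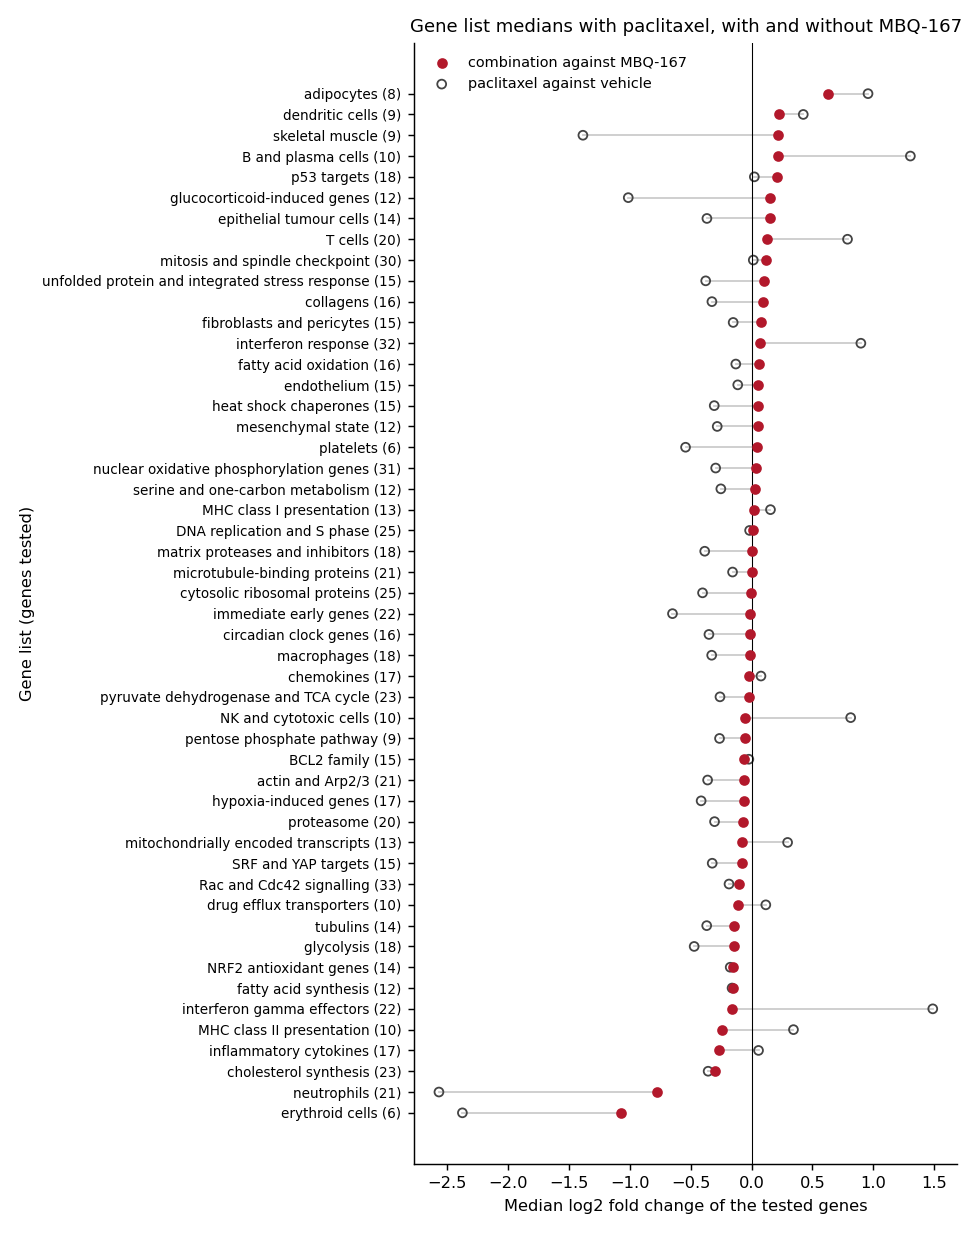
Each row is one of 50 gene lists with its number of tested genes. Filled red points give the median log2 fold change of combination against MBQ-167 and open points that of paclitaxel against vehicle; for neutrophils the values are -0.78 and -2.57 (the second is -1.48 without vehicle replicate 3), and for interferon gamma effectors -0.16 and 1.49.

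The genes that responded to paclitaxel alone gave sets whose fold changes came from libraries other than the 6 compared here. Their p-values used a spread estimated over all 12 libraries, so the choice was not independent of the 6. A fit of the paclitaxel and vehicle libraries alone called 251 genes, 170 higher and 81 lower, and those sets were not followed here. The 578 genes that rose with paclitaxel alone had a median log2 fold change of 0.90 there and of 0.22 in combination against MBQ-167, where 476 were positive and 102 negative. All combination libraries lay above all MBQ-167 libraries for 181 of them (31.3%, against 6.59% of all genes), and all lay below for 11. The 455 genes that fell with paclitaxel alone had a median of -0.65 there and of -0.08 in combination against MBQ-167, with 300 negative and 155 positive, and 56 lay wholly below (12.3%, against 5.92% of all genes). The median was between 0.17 and 0.26 for the first set and between -0.10 and -0.04 for the second when single libraries of the 6 were left out. The medians of 0.90 and -0.65 came from the values that chose the genes, so the choice itself enlarged them. A smaller median in the other comparison was therefore favoured in advance and does not measure a weaker effect.

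GC content moved with these values. The higher set had a median transcript GC content of 40.7% and the lower set of 54.0%, against 49.4% over all genes. With each library's GC trend removed, the first set's median was 0.08 and 13.3% lay wholly above (against 4.67% of all genes), and the second set's median was -0.04 and 8.37% lay wholly below (against 5.9%). In that setting paclitaxel alone called 419 genes, 130 higher and 289 lower, in place of 578 and 455. The count for paclitaxel alone also fell to 366 without vehicle replicate 1, to 406 without paclitaxel replicate 1 and to 230 without paclitaxel replicate 2. Without vehicle replicate 3 there were 648 higher and 491 lower genes, whose medians in combination against MBQ-167 were 0.24 and -0.06.

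**Figure D4:**
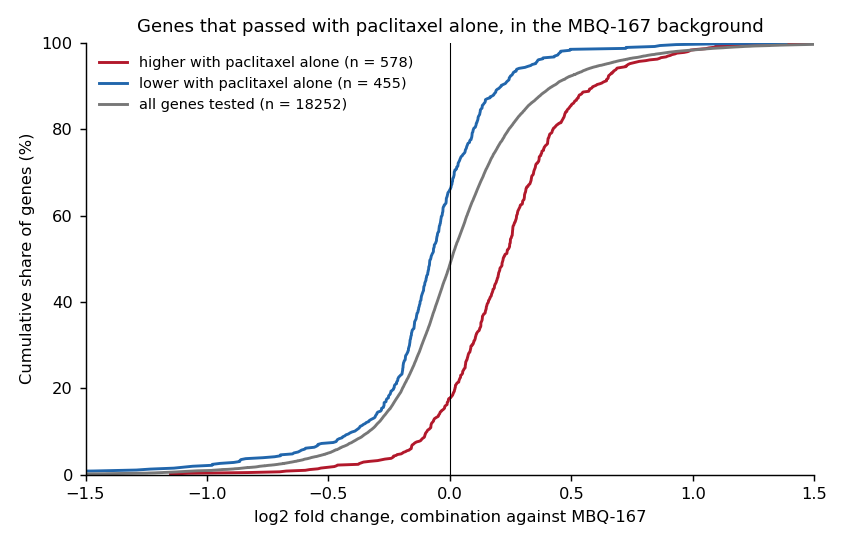
Cumulative share of genes (vertical axis) by log2 fold change of combination against MBQ-167 (horizontal axis), for the genes higher with paclitaxel alone (red, 578), those lower (blue, 455) and all genes tested (grey, 18252). The red curve lies to the right of the grey one, with a median of 0.22, and the blue one to its left, with a median of -0.08.

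Whether paclitaxel acted differently with and without MBQ-167 was asked by the interaction. It passed for 11 genes (0.0603% of 18252), 8 with a value above 0 (0.0438%) and 3 below (0.0164%). Each of the 11 had also passed with paclitaxel alone, against 5.66% of all genes. The interaction contains the paclitaxel minus vehicle difference, so passing both was favoured in advance. Fos and Fosb, which encode subunits of the AP-1 transcription factor and are switched on within minutes of growth factor or stress signals, had the largest effects above 0. Fos (ENSMUSG00000021250, chromosome 12, 85473890 to 85477273, GRCm38) had 17.8, 15.5 and 11.3 CPM in combination libraries and 10.3, 10.2 and 12.4 CPM in MBQ-167 libraries, where the groups overlapped. It had 13.7, 7.51 and 9.94 CPM in paclitaxel libraries, against 45.3, 61.8 and 64.1 CPM in vehicle libraries, with no overlap. All 3 drug-treated groups were low and vehicle was high. The interaction was 2.88 (SE 0.32, edgeR adjusted p = 0.00514).

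Fosb had 11.1, 20.8 and 5.59 CPM in combination libraries and 4.58, 6.79 and 3.04 CPM in MBQ-167 libraries, and 3.18, 4.35 and 4.42 CPM in paclitaxel libraries, against 53.7, 36.8 and 37.5 CPM in vehicle libraries. One combination library lay within the MBQ-167 range and the other two above it, and the interaction was 4.81 (SE 0.56, edgeR adjusted p = 0.00514). Atf3, a stress-induced AP-1 partner, had 22.6, 24.2 and 12.7 CPM in combination libraries, 14.3, 15.5 and 13.4 CPM in MBQ-167 libraries, 21.8, 18.01 and 13.9 CPM in paclitaxel libraries and 54.9, 67.3 and 54.4 CPM in vehicle libraries (interaction 2.17, SE 0.31, adjusted p = 0.0286). Jund, another AP-1 subunit, and the antisense gene Gm11175 that overlaps it, Dusp1, a MAP kinase phosphatase, Klf2, a flow-responsive transcription factor, and Fkbp5, a chaperone induced by glucocorticoids, complete the 8. These 5 were chosen after their values were seen, and in all of them every vehicle library lay above every library of the drug-treated groups, by least for Gm11175, where the lowest vehicle library had 125 CPM and the highest combination library 122 CPM.

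The wider list of immediate early genes, to which 6 of the 8 belong, had a median of -0.01 over 22 members in combination against MBQ-167, with 1 (4.55%) wholly above and 5 (22.7%) wholly below, against 6.59% and 5.92% of all genes. The median was -0.02 with the GC trend removed, and 3 (13.6%) lay wholly above and 4 (18.2%) wholly below, against 4.67% and 5.9% of all genes. With paclitaxel alone 12 of the 22 fell, against 2.49% of all genes, and the median was -0.65. That count was 11 without vehicle replicate 3, 9 with the GC trend removed and 8 without paclitaxel replicate 2. Not all members were near 0 in the MBQ-167 background: Egr3, a growth-factor-induced zinc finger factor chosen after its values were seen, had 0.744, 0.929 and 1.32 CPM in combination libraries, against 2.44, 2.31 and 2.50 CPM in MBQ-167 libraries (log2 fold change -1.25, SE 0.36, edgeR adjusted p = 0.879). Ier3, a stress-induced survival gene chosen likewise, had 47.9, 48.9 and 40.4 CPM in combination libraries, against 73.6, 73.4 and 60.3 CPM in MBQ-167 libraries. The combination libraries of both lay wholly below the MBQ-167 libraries.

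The 3 genes below 0 were low in vehicle. Ch25h, an interferon-induced enzyme gene that overlaps the lncRNA gene Gm26902 and makes the oxysterol 25-hydroxycholesterol, had 3.25, 3.22 and 4.43 CPM in combination libraries, against 6.52, 9.32 and 8.52 CPM in MBQ-167 libraries, and 6.12, 7.74 and 10.2 CPM in paclitaxel libraries, against 1.51, 3.64 and 1.35 CPM in vehicle libraries. It was higher with either drug alone than in the combination, and the interaction was -3.04 (SE 0.48, edgeR adjusted p = 0.0350). Tmem229b, a membrane protein gene, had 22.3, 19.0 and 20.5 CPM in combination libraries, against 28.9, 25.3 and 25.2 CPM in MBQ-167 libraries, and 26.5, 26.9 and 26.3 CPM in paclitaxel libraries, against 15.6, 16.3 and 13.1 CPM in vehicle libraries (interaction -1.19, SE 0.18). Zbp1, a sensor of Z-form nucleic acid that can trigger necroptosis, had 32.5, 22.98 and 22.6 CPM in combination libraries and 26.8, 23.8 and 22.7 CPM in MBQ-167 libraries, and 33.1, 40.8 and 32.4 CPM in paclitaxel libraries, against 13.8, 12.3 and 12.7 CPM in vehicle libraries (interaction -1.37, SE 0.23). In both Ch25h and Tmem229b the combination libraries lay wholly below the MBQ-167 libraries.

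Of the 11 genes, Fos and Fosb passed the interaction in each of the 12 fits that left out 1 library and in each of the 10 other settings run. The other 9 passed in 1 to 7 of those 12. In the fit with the GC trend removed Fkbp5, Gm11175 and Zbp1 did not pass, with the replicate block Gm11175 did not, and with both Fkbp5, Gm11175, Zbp1 and Dusp1 did not. The count over all genes was 2 to 16 in these fits, 9 without vehicle replicate 3 and 9 with the GC trend removed. It was 2 without MBQ-167 replicate 2, MBQ-167 replicate 3, paclitaxel replicate 3 or combination replicate 2, 4 without vehicle replicate 1, and 5 without MBQ-167 replicate 1, paclitaxel replicate 1 or paclitaxel replicate 2. DESeq2 gave 153 and edgeR without the low-count filter 197.

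**Figure D5:**
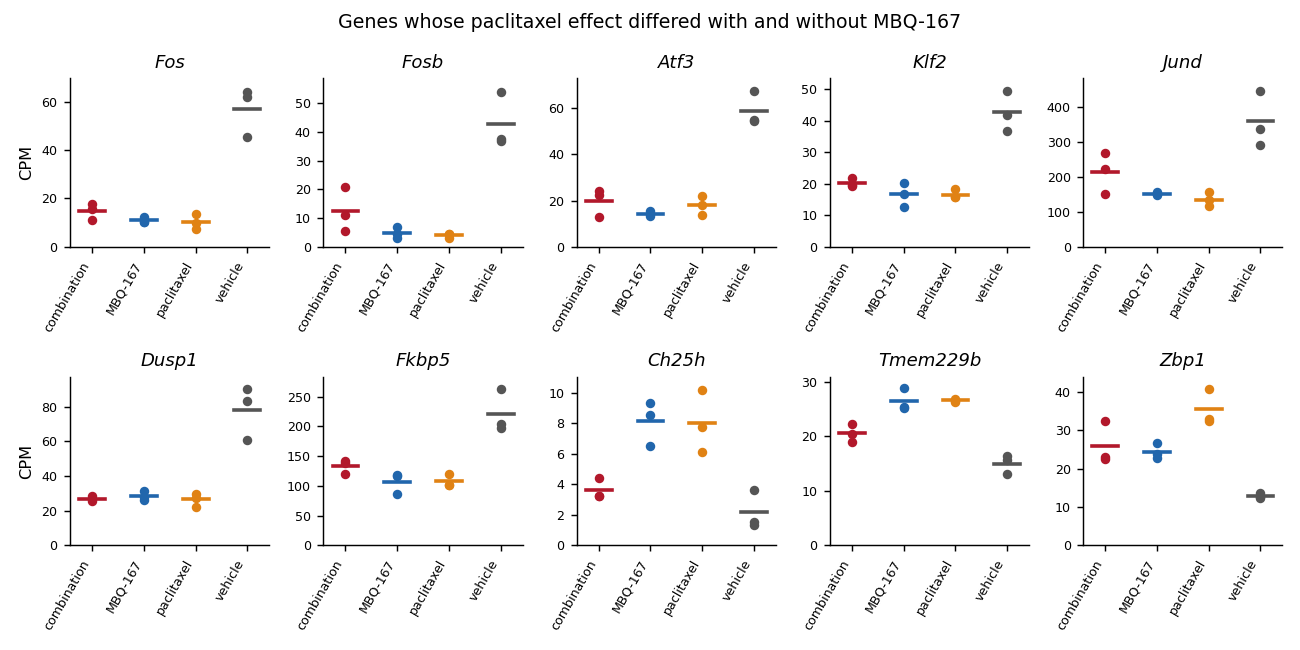
CPM of each library (points) and group means (bars) for 10 of the 11 genes that passed the interaction, in combination, MBQ-167, paclitaxel and vehicle libraries from left to right. Fos lies between 7.51 and 17.8 CPM in the 9 libraries of drug-treated mice and between 45.3 and 64.1 CPM in the 3 vehicle libraries.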

How the data were processed

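RNA was sequenced from 12 mouse 4T1 tumours' libraries, 3 per group. The authors deposited raw counts per gene for 46078 identifiers, 45143 of which matched a symbol in GENCODE vM21 (GRCm38); per the submitters' processing notes, HISAT2, HTSeq and DESeq2 were used with GRCm38. Tool versions, annotation and strandedness are not given in the sources used, so reads of overlapping genes may be mixed. Per the labels' protocols, RNA was TRIzol-extracted polyA RNA.

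Genes were kept by filterByExpr of edgeR 4.0.16 (minimum count 10), scaled by TMM and fitted to all 12 libraries by the quasi-likelihood test (R 4.3.3; biological coefficient of variation 0.214, 8 residual degrees of freedom). Combination against MBQ-167, paclitaxel against vehicle and their interaction were each adjusted by Benjamini-Hochberg over 18252 genes, with a threshold of 0.05. CPM values are counts scaled to the TMM-corrected library size, and the exact permutation tests are two-sided. Alternatives were DESeq2 1.42.0, voom of limma 3.58.1, RLE scaling, other filters and gene sets, a GC offset (spline with 5 degrees of freedom), a replicate block and leaving out each library; the alternatives on the genes that responded to paclitaxel alone, and those on the lists and named genes for paclitaxel against vehicle, were added after seeing the data. The model was run on counts simulated with known changes at the fitted trend of the spread. These counts held no GC trend and no outlying library, so the run does not test the model for those.

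The comparison, the 50 gene lists and the tests were chosen with earlier results of these data known. Named genes were the 10 with the smallest p per direction among genes averaging 1 CPM or more whose groups did not overlap (none passed) and, with no such filter, the 3 with the smallest p of each list with an absolute median of 0.3 or more and at least 4 tested members, the 3 with the smallest p per direction in the interaction, and fixed genes of the drug targets and cell division; others are said to be chosen after their values were seen. A few genes that the rule names are not reported here. Same-group libraries differed by a chi-square of 18.7 to 83.4 per degree of freedom, so none was another's library sequenced again. The check cannot tell libraries of separate mice from separate libraries of the same tumour.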

Additional observations from a re-analysis of the deposited data

Results flagged for a closer look

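The effect of paclitaxel differed with and without MBQ-167, by the interaction test of edgeR at an adjusted p under 0.05, for 11 genes. The values are the log2 difference between the combination minus MBQ-167 effect and the paclitaxel minus vehicle effect. Fos had 2.88 and Fosb 4.81, and both passed in all 12 fits that left out 1 library, with ranges of 2.70 to 3.13 and 4.21 to 5.17.

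Klf2, at 1.65, passed in 7 of the 12 fits and missed the threshold without MBQ-167 replicates 2 and 3, paclitaxel replicates 1 and 3 and combination replicate 2. Dusp1, at 1.49 and overlapping Ergic1, passed in 6 and missed it without MBQ-167 replicates 1, 2 and 3, paclitaxel replicates 2 and 3 and combination replicate 2. Atf3, at 2.17, and Jund, at 1.90, passed in 5 each; both missed it without vehicle replicate 1, each MBQ-167 library, paclitaxel replicate 3 and combination replicate 2, and also without paclitaxel replicate 2 (Atf3) or 1 (Jund).

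Fkbp5, at 1.36, passed in 3, without vehicle replicate 2 or 3 or combination replicate 3. Gm11175, at 1.73, whose reads cannot be told from those of Jund without strand, passed in 3, without vehicle replicate 2, paclitaxel replicate 2 or combination replicate 3. Tmem229b, at -1.19, passed in 2, without vehicle replicate 2 or combination replicate 1, and Ch25h, at -3.04, in 2, without vehicle replicate 2 or combination replicate 3. Zbp1, at -1.37, passed in 1, without combination replicate 1. The sign was the same in every one of these fits. Fkbp5, Gm11175 and Zbp1 also missed the threshold with the GC offset and with GC offset and replicate block, Gm11175 with the block alone, and Dusp1 with GC offset and block.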

How the results depend on the processing

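For combination against MBQ-167, the count of 0 genes was also 0 with limma voom (1009 at an unadjusted p under 0.05), RLE scaling, the 1 CPM filter, a fit of the 6 libraries alone, protein-coding genes only, without the 3 most abundant features, with the GC offset, with the replicate block (1004), with both, and in the leave-one-out fits (0 to 0); DESeq2 gave 1 and no filter 4 (among them Fosb and the snRNA features Gm26444 and Gm25679). The comparison of paclitaxel against vehicle gave 1772 genes with DESeq2, 1554 with no filter, 251 in a fit of its own 6 libraries, 419 with the GC offset, 395 with GC offset and replicate block, 1092 with the block alone, and 230 to 1139 leaving out single libraries. The interaction gave 153 genes with DESeq2, 197 with no filter, 13 with the replicate block, 7 with GC offset and block, and 2 to 16 leaving out single libraries (2 without MBQ-167 replicate 2, MBQ-167 replicate 3, paclitaxel replicate 3 or combination replicate 2). The share of counts on the 3 most abundant features differed by -4.22 percentage points, and by -8.31 to -0.863 leaving out single libraries. Same-numbered combination and MBQ-167 libraries deviated together with correlations of 0.02, 0.04 and 0.30, and paclitaxel and vehicle ones with -0.15, -0.002 and -0.06. The labels give no pairing, and with 3 libraries a group these correlations cannot show whether same-numbered samples share more than a number.

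In paclitaxel against vehicle, named genes that turned sign included Cfd and Fabp4 without paclitaxel replicate 2 and Abcb1a without vehicle replicate 3. These genes did not pass in that comparison. The list medians of adipocytes and of B and plasma cells also turned sign there without paclitaxel replicate 2. In combination against MBQ-167, signs of named genes turned under an alternative only for values that did not pass. Leaving out single libraries, Zbp1 ran from -0.102 (without combination replicate 1) to 0.170, Stmn1 from -0.127 (without MBQ-167 replicate 1; also below 0, at -0.0577, without combination replicate 3) to 0.393, Cdkn1a from -0.0199 (without combination replicate 2) to 0.199, Ldha from -0.172 to 0.0502 (without combination replicate 1), Ifit1 from -0.0365 (without combination replicate 1) to 0.266, and Dusp1 from -0.141 to 0.00446 (without MBQ-167 replicate 2). Abcb1b ran from -0.0577 (without combination replicate 2; also below 0 without combination replicate 3 and MBQ-167 replicate 3) to 0.159, and was -0.00805 with the GC offset and -0.0254 with GC offset and replicate block; the cause was not tested. Of 400 list medians under alternatives, 27 moved beyond the spread. Depth and 3 libraries a group limit the comparison to changes near the interval widths given above, and genes of low count are the least certain.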
